A study of Homo sapiens with 21 samples.

Results

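The 9 genes described here, direct targets of the tumour suppressor p53, were followed through the response to tunicamycin, an inhibitor of N-linked glycosylation that causes endoplasmic reticulum (ER) stress. They were CDKN1A, MDM2, GADD45A, SESN1, ZMAT3, TP53I3, FDXR, RRM2B and PHLDA3, chosen by name as known targets of p53, with earlier results of these data known. All 9 were found among the 60671 genes of the table and all 9 were among the 14012 genes tested. The 21 libraries of polyadenylated RNA fell into 7 groups of 3 replicates. OCI-AML3 cells, a line of acute myeloid leukaemia grown in RPMI, were untreated at 0 h, given DMSO for 4 h or 24 h, or given 1 μg/mL tunicamycin for 4 h or 24 h. HEK293T cells, an adherent line from embryonic kidney grown in DMEM, were given DMSO or 1 μg/mL tunicamycin for 24 h. DMSO is the solvent of tunicamycin and serves as its control.

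p53 is a transcription factor that is kept low by MDM2, a ubiquitin ligase which p53 itself induces, so that the pair form a feedback loop. When the loop is broken, most often by DNA damage, p53 binds elements near its target genes and raises p21 (CDKN1A), repair genes and genes of cell death. OCI-AML3 is generally described as carrying wild-type p53, whereas HEK293T expresses the large T antigen of SV40, which binds p53 and blocks it. Neither p53 protein nor T antigen was measured in these data. Each line stands for its kind as a single line, and the lines differ in origin, medium and growth as well as in p53, so that these differences cannot be told apart.

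MDM2 and SESN1 are shown by their promoters because the p53 consensus, a pair of 10-base repeats that reads the same on both strands, had a match before a start site of each. Windows from 250 bases before to 50 bases after RefSeq start sites (GRCh38) were searched, allowing 3 mismatches in 20 bases. Of 35116 such windows of all genes, 5.2% held a match, and 4 of the 13 windows of the 6 members with a window did, of which 2 are overlapping windows of MDM2 that hold the same matches. With at most 2 mismatches 0.649% of all windows held a match. For MDM2 (110 to 21 bases before an internal start site, plus strand, chr12:68808907-68808996) and SESN1 (the 110 bases before an internal start site, minus strand, chr6:109008989-109009098) the stretches read as follows, with each 20-base match in capitals, its mismatched bases included.
MDM2: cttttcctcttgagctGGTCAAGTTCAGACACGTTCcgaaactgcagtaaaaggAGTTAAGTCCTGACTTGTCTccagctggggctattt
SESN1: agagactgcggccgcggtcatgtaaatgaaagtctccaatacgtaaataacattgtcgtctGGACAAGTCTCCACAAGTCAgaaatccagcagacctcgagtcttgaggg
MDM2 held 2 matches, with 2 and 3 mismatches, and the match of SESN1 had 3. FDXR (minus strand, chr17:74872996-74873015) held a match with 3 mismatches, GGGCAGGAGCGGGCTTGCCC. No window of CDKN1A, ZMAT3 or TP53I3 held one, which says only that these letters are not in these windows. A match is a description of the sequence, and binding of p53 was not measured.

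Library totals lay between 13838466 and 19961798 counts, and members were covered by 62 to 2863 counts in every library, so that counting error weighs most on the members with the fewest counts, such as TP53I3 in HEK293T. Levels are given as CPM, the count of a gene scaled to the size of its library with TMM factors. Replicates of a group correlated at 0.985 to 0.995 (Pearson, log2 CPM), and nothing in the labels says that they were separate cultures, so that p-values may measure technical spread only. Replicate 1 of DMSO at 4 h and replicate 3 of tunicamycin at 24 h in OCI-AML3 stood farthest from the other libraries of their groups. Calls of members that changed without either of them are given with and without it. The 6 OCI-AML3 markers (SPI1, CD33, PTPRC, MPO, HOXA9, MEIS1) summed to 605 to 845 CPM in OCI-AML3 libraries and to 100 to 145 CPM in HEK293T libraries, where PTPRC and MPO were at 0. HOXA9 went the other way and was higher in HEK293T in DMSO (log2 1.10 ± 0.08, adjusted p = 1.8e-11), and MPO was at most 1.66 CPM in OCI-AML3. Those of HEK293T (KRT8, KRT18, CDH2, PAX2) summed to 119 to 146 CPM in HEK293T and to 3.16 to 5.27 CPM in OCI-AML3 libraries. The treatment check genes HSPA5 and DDIT3 rose in all 3 comparisons of tunicamycin with DMSO, HSPA5 by 3.29, 3.52 and 2.7 and DDIT3 by 5.36, 4.33 and 3.69 on the log2 scale in OCI-AML3 at 4 h, at 24 h and in HEK293T.

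Tunicamycin did not move the 9 targets in a common direction. GADD45A rose 4.05-fold at 4 h in OCI-AML3 and 3.06-fold in HEK293T, and was the only member to pass both an adjusted p of 0.05 and a log2 fold change of 1 in either of these comparisons, which 4.92% and 2.13% of all genes did. CDKN1A rose at 4 h and fell at 24 h in OCI-AML3. ZMAT3 did the reverse, RRM2B and TP53I3 rose and FDXR fell at 24 h, and MDM2 did not pass the test in any of the 3 comparisons. At an adjusted p of at most 0.05 in edgeR's quasi-likelihood test, 4 of 9 members were called at 4 h (2 higher, 2 lower) beside 37.5% of all genes tested (18.5% higher, 18.9% lower). At 24 h 6 of 9 were called (3 higher, 3 lower) beside 51.1% (23.5% higher, 27.7% lower), and in HEK293T 2 of 9 (1 higher, 1 lower) beside 25.7% (12.6% higher, 13.1% lower). DESeq2 called 4, 8 and 3 members, beside 38%, 51.2% and 26.9% of all genes. With limma voom 4, 6 and 1 were called, beside 37.3%, 51.1% and 27.5%. The median log2 fold change of the members was -0.02, 0.16 and -0.10, beside -0.02, -0.01 and -0.01 for all genes tested. At 24 h none of the 9 passed both thresholds, beside 6.32% of all genes, by edgeR, limma voom or DESeq2, and 7 had an unadjusted p below 0.05, beside 56.2% of all genes. The 3 libraries of tunicamycin and of DMSO did not overlap for 5 members at 4 h, 6 at 24 h and 5 in HEK293T, beside 46.3%, 52.8% and 49.1% of all genes.

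**Figure D1:**
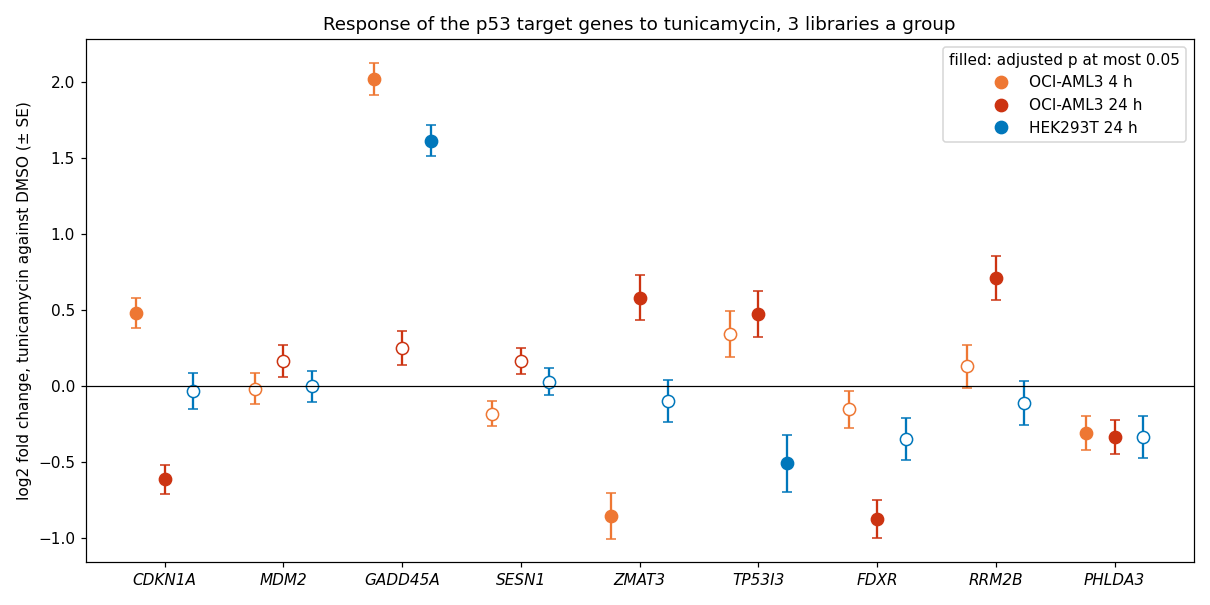
Log2 fold change of tunicamycin against DMSO (y axis) for the 9 p53 target genes (x axis) in OCI-AML3 at 4 h, OCI-AML3 at 24 h and HEK293T at 24 h, as edgeR estimates with bars of ± 1 standard error from 3 libraries a group, filled where the adjusted p was at most 0.05. GADD45A stands above the other genes at 4 h (2.02) and in HEK293T (1.61), CDKN1A and ZMAT3 change sign between 4 h and 24 h, and MDM2 lies close to 0 throughout.

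CDKN1A (ENSG00000124762, chr6:36676460-36687337, plus strand) encodes p21, the inhibitor of cyclin-dependent kinases through which p53 arrests the cell cycle. Its level was 81.7, 87.2 and 83.3 CPM in untreated OCI-AML3 cells and 80.1, 67.4 and 68.8 CPM in the DMSO control at 4 h. With tunicamycin for 4 h it was 115, 94.1 and 92.0 CPM. Every tunicamycin library lay above every DMSO library at 4 h, and the log2 fold change was 0.48 ± 0.10 (SE; adjusted p = 0.00059). After DMSO for 24 h the level was 163, 163 and 157 CPM, and after tunicamycin for 24 h 118, 98.9 and 98.5 CPM. The order was thus turned at 24 h, with all tunicamycin libraries below DMSO and a log2 fold change of -0.62 ± 0.10 (adjusted p = 2.2e-05). The tunicamycin groups at 4 h and 24 h overlapped each other, at means of 100 ± 12.7 and 105 ± 11.3 CPM (SD, n = 3), while the DMSO groups stood apart at 72.1 ± 6.93 and 161 ± 3.52 CPM. In HEK293T the gene stood at 18, 15.3 and 12.7 CPM in DMSO and 15.1, 14.2 and 15.5 CPM in tunicamycin. These groups overlapped, with a log2 fold change of -0.03 and a 95% interval from -0.28 to 0.21.

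GADD45A (ENSG00000116717, chr1:67685201-67688334, plus strand) encodes a small stress protein that binds p21 and PCNA, and besides p53 the ER stress factor ATF4 is known to induce it. In OCI-AML3 it stood at 12, 10.9 and 11.2 CPM after DMSO for 4 h and at 45.3, 50.0 and 42.6 CPM after tunicamycin for 4 h, a log2 fold change of 2.02 ± 0.11 (adjusted p = 5.7e-13). At 24 h the levels were 12.6, 11.1 and 14.1 CPM in DMSO and 14.6, 16.4 and 13.9 CPM in tunicamycin. The groups overlapped at 24 h and the difference of 0.25 ± 0.11 missed the threshold (adjusted p = 0.072), while it passed without replicate 3 of DMSO (0.38, adjusted p = 0.013), without replicate 1 (0.31, 0.044) or without replicate 3 (0.34, 0.03) of tunicamycin. It passed also with the DESeq2 Wald test (0.28, adjusted p = 0.038), DESeq2 size factors (0.035), library sizes without TMM (0.014), the filter of 1 CPM in 3 libraries (0.039) and the corrections for GC content (0.31, 0.021) and length (0.41, 0.0014). In HEK293T the gene rose from 14.7, 12.9 and 13.4 CPM to 41.6, 43.3 and 40.6 CPM, a log2 fold change of 1.61 ± 0.10 (adjusted p = 2.7e-11). Thus HEK293T cells at 24 h stood at 41.8 ± 1.39 CPM (SD, n = 3) in tunicamycin, near the 46.0 ± 3.73 CPM of OCI-AML3 cells at 4 h, and the libraries of these groups overlapped.

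MDM2 (ENSG00000135679, chr12:68808177-68845544, plus strand), the ubiquitin ligase of the feedback loop, had 121, 151 and 151 CPM after DMSO for 4 h and 139, 136 and 143 CPM after tunicamycin for 4 h. At 24 h it had 108, 104 and 85.6 CPM in DMSO and 108, 97.2 and 128 CPM in tunicamycin, and in HEK293T 106, 111 and 120 CPM in DMSO and 111, 109 and 116 CPM in tunicamycin. All 3 pairs of groups overlapped. The log2 fold changes were -0.02 with a 95% interval from -0.23 to 0.19, 0.16 from -0.05 to 0.38, and -0.00 from -0.21 to 0.21. Differences that lie within these intervals remain possible with 3 libraries a group. With a library left out the value at 24 h ran from 0.087 to 0.30, the upper end without replicate 2 of tunicamycin (adjusted p = 0.021). The gene overlaps CPM on the opposite strand by 3348 bases, and CPM had on average 27.8% of the counts of MDM2, while a pseudogene on its own strand (ENSG00000256664) had 4.59% and a long noncoding RNA on the opposite strand (ENSG00000257181) 5.2%. Whether the authors' counting used the strand is not given in the sources used here.

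SESN1 (ENSG00000080546, chr6:108984309-109094846, minus strand) encodes sestrin 1, which restrains the growth kinase mTORC1. Its level was 68.2, 59.1 and 62.8 CPM after DMSO and 57.7, 52.8 and 56.9 CPM after tunicamycin for 4 h. The libraries did not overlap but the difference missed the threshold (-0.18 ± 0.08, adjusted p = 0.089; -0.27, 0.0081 with the GC correction). At 24 h the groups overlapped, with 64.3, 59.8 and 73.9 CPM in DMSO and 69.8, 73.5 and 78.2 CPM in tunicamycin (0.16 ± 0.08, adjusted p = 0.11). This difference passed without replicate 3 of DMSO (0.30, adjusted p = 0.0069) or replicate 1 of tunicamycin (0.25, 0.028), and with the DESeq2 Wald test (0.20, 0.041), DESeq2 size factors (0.047), library sizes without TMM (0.018) and 1 CPM in 3 libraries (0.05), while it was 0.01 (0.95) with the GC correction. In HEK293T it stood at 30.3, 27.4 and 31.3 CPM and at 28.2, 29.6 and 33.0 CPM, with a difference of 0.03 and a 95% interval from -0.15 to 0.21.

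RRM2B (ENSG00000048392, chr8:102204502-102238961, minus strand) encodes p53R2, a small subunit of ribonucleotide reductase that supplies deoxynucleotides outside S phase. After DMSO for 4 h it had 52.9, 72.7 and 76.9 CPM and after tunicamycin for 4 h 71.8, 71.8 and 78.3 CPM, which overlapped (0.13 ± 0.14, adjusted p = 0.51). At 24 h it rose from 49.8, 53.8 and 42.5 CPM to 75.0, 64.8 and 99.1 CPM, a log2 fold change of 0.71 ± 0.14 (adjusted p = 0.0003). All tunicamycin libraries lay above all DMSO libraries at 24 h, and with the GC correction the value was 0.43 (adjusted p = 0.00011). It ran from 0.56 to 0.89 with a library left out and stayed called, while replicate 3 of tunicamycin was the highest library. In HEK293T the gene had 49.9, 47.4 and 51.2 CPM in DMSO and 43.8, 46.3 and 47.3 CPM in tunicamycin (-0.11 ± 0.14, adjusted p = 0.62; -0.22, 0.036 with the GC correction).

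TP53I3 (ENSG00000115129, chr2:24077433-24085861, minus strand) encodes PIG3, a quinone reductase linked to oxidative stress. It had 18.3, 14.1 and 11.5 CPM after DMSO and 18.4, 17.8 and 19.2 CPM after tunicamycin for 4 h. These groups overlapped through replicate 1 of DMSO alone, and the difference of 0.34 ± 0.15 (adjusted p = 0.082) became 0.54 (adjusted p = 0.006) without it. With all libraries kept it was called with the GC correction (0.40, adjusted p = 0.02) and, at the threshold, with the length correction (0.33, 0.05). At 24 h the gene rose from 15.1, 15 and 14.7 CPM to 20.03, 26.4 and 16 CPM (0.47 ± 0.15, adjusted p = 0.013), and without replicate 2 of tunicamycin the value was 0.32 (adjusted p = 0.07). In HEK293T it stood at 6.21, 6.32 and 5.03 CPM in DMSO and 3.94, 4.19 and 4.16 CPM in tunicamycin. All tunicamycin libraries were lower there, but the call lay at the threshold (-0.51 ± 0.19, adjusted p = 0.0498) and was lost in limma voom (adjusted p = 0.11) and without any of 5 libraries, each of them other than replicate 3 of DMSO (adjusted p = 0.095 to 0.14). The gene lies wholly within FAM228B on the opposite strand, which had on average 26.2% of its counts.

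FDXR (ENSG00000161513, chr17:74862497-74873031, minus strand) encodes ferredoxin reductase, which passes electrons to mitochondrial cytochromes P450 and iron-sulfur cluster assembly. It had 75.7, 56.7 and 54.4 CPM after DMSO and 55.3, 58.3 and 54.0 CPM after tunicamycin for 4 h, which overlapped (-0.15 ± 0.12, adjusted p = 0.35; 0.03, 0.89 without replicate 1 of DMSO). At 24 h it fell from 70.8, 78.7 and 74.1 CPM to 47.1, 43.5 and 31.8 CPM, a log2 fold change of -0.88 ± 0.13 (adjusted p = 5.3e-06) and the largest fall among the members at that time. This value ran from -0.95 to -0.68 with a library left out and stayed called. In HEK293T the libraries did not overlap either, at 20.1, 21.8 and 17 CPM in DMSO and 14.1, 15.3 and 16.9 CPM in tunicamycin, but the difference missed the threshold (-0.35 ± 0.14, adjusted p = 0.069), which it passed without replicate 3 of DMSO (-0.45, adjusted p = 0.037). It passed as well with the DESeq2 Wald test (adjusted p = 0.049), library sizes without TMM (0.026), no filter (0.0091), the groups alone (0.0079) and the length correction (-0.36, 0.024).

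ZMAT3 (ENSG00000172667, chr3:178960121-179072215, minus strand) encodes a zinc finger protein that binds RNA and affects splicing. It fell at 4 h, from 15.1, 18.6 and 19 CPM to 9.85, 8.63 and 10.8 CPM, a log2 fold change of -0.85 ± 0.15 (adjusted p = 9.3e-05). At 24 h it rose, from 13.2, 14.9 and 10.2 CPM to 17.9, 16.5 and 22.7 CPM (0.58 ± 0.15, adjusted p = 0.0023; 0.35, 0.013 with the GC correction). With a library left out the value at 24 h ran from 0.47 to 0.75 and stayed called. The libraries of the groups did not overlap at either time. In HEK293T they overlapped, with 16.7, 15.1 and 19.2 CPM in DMSO and 16.2, 14.2 and 17.4 CPM in tunicamycin (-0.10 ± 0.14, adjusted p = 0.66).

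PHLDA3 (ENSG00000174307, chr1:201464278-201469237, minus strand) encodes a pleckstrin homology domain protein that competes with the kinase AKT for membrane lipids. Its 3 estimates were nearly equal. It had 59.3, 52.3 and 46.2 CPM after DMSO and 42.8, 43.4 and 40.7 CPM after tunicamycin for 4 h (-0.31 ± 0.11, adjusted p = 0.032). At 24 h it had 54.9, 54.0 and 60.9 CPM in DMSO and 51.9, 46.4 and 36.5 CPM in tunicamycin (-0.34 ± 0.11, adjusted p = 0.015), and in HEK293T 12.1, 10.9 and 8.73 CPM and 8.53, 8.22 and 8.26 CPM (-0.34 ± 0.14, adjusted p = 0.084). Every tunicamycin library lay below every DMSO library in all 3 comparisons. The call at 4 h was lost without replicate 1 of DMSO (-0.20, adjusted p = 0.19), replicate 2 of DMSO or any replicate of tunicamycin (adjusted p = 0.058 to 0.097), the call at 24 h without replicate 3 of tunicamycin (-0.16, adjusted p = 0.24) or of DMSO (-0.24, 0.13) with the groups alone (-0.31, 0.055) and with the GC correction (-0.18, 0.084), and HEK293T passed without replicate 3 of DMSO (-0.46, 0.026). In HEK293T it passed also with library sizes without TMM (adjusted p = 0.033), no filter (0.04), the groups alone (0.041) and a replicate block (0.046). The corrections for GC content (-0.30, 0.041) and length (-0.36, 0.048) called it there as well.

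**Figure D2:**
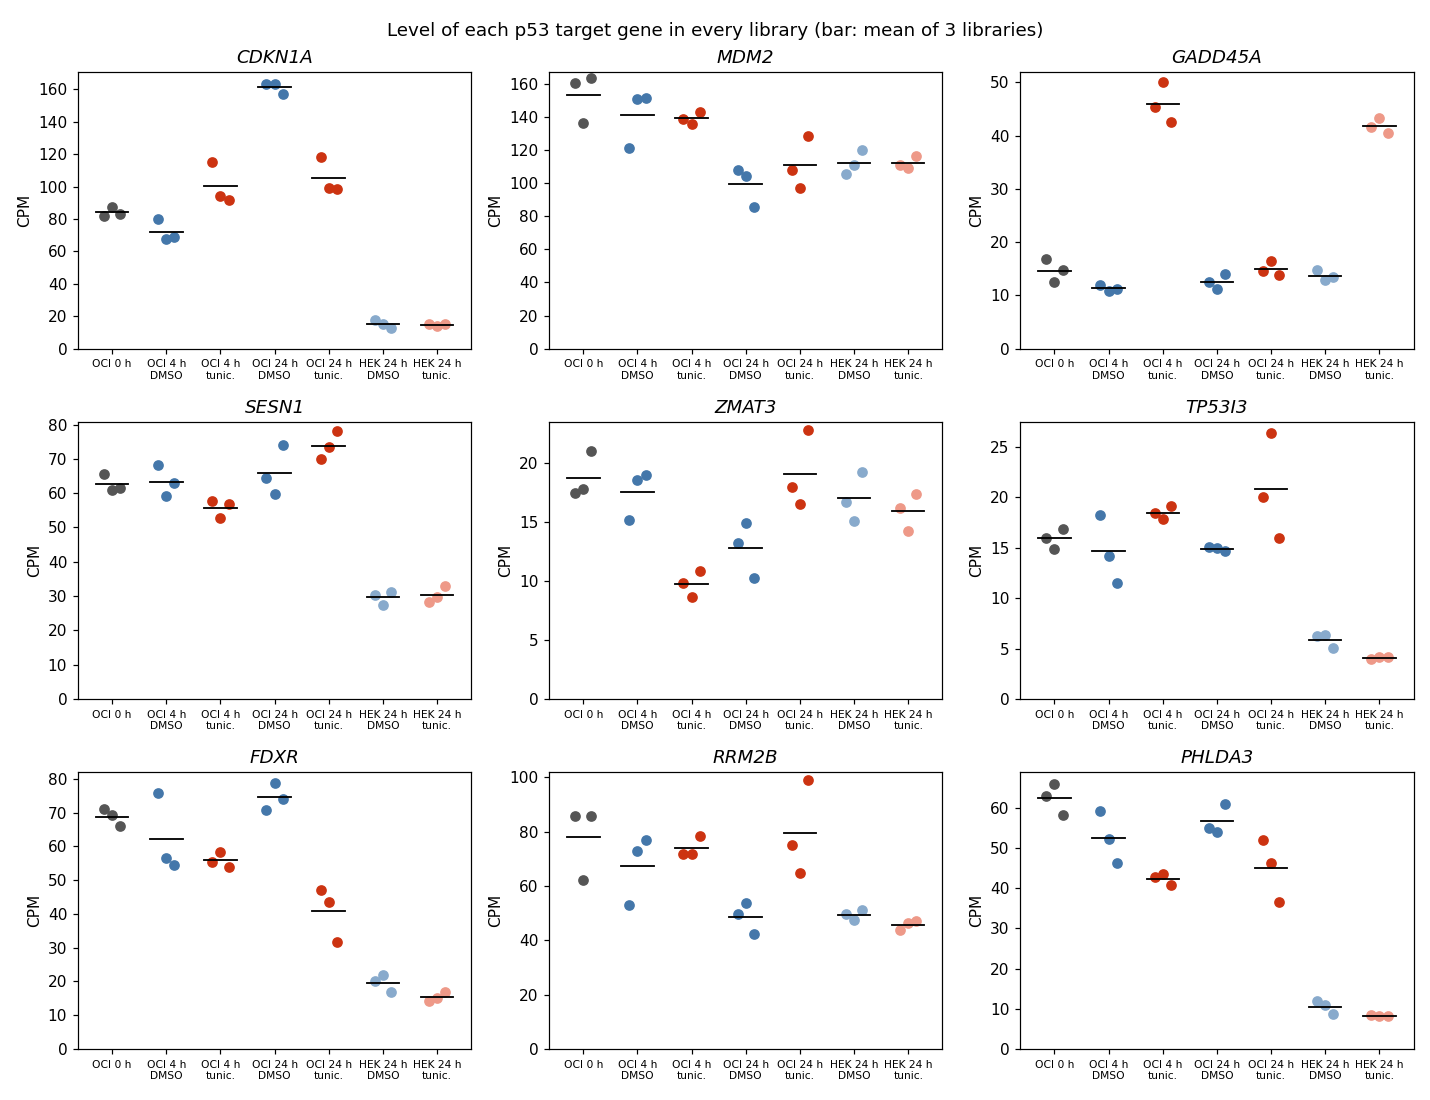
Level of each of the 9 p53 target genes in CPM (y axes, linear and starting at 0, a scale for each gene) in every library of the 7 groups (x axes), with a horizontal bar at the mean of 3 libraries. CDKN1A, FDXR, PHLDA3, SESN1 and TP53I3 stand lower in both HEK293T groups than in any OCI-AML3 group, which was not counted over all genes. GADD45A is high in OCI-AML3 after tunicamycin for 4 h and in HEK293T after tunicamycin.

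The interaction of tunicamycin with time asked whether the response of OCI-AML3 differed between 4 h and 24 h. It passed the test for 6 of 9 members, beside 35.3% of all genes. GADD45A (-1.77 ± 0.15, adjusted p = 2e-08) and CDKN1A (-1.09 ± 0.14, adjusted p = 4.4e-06) had lower responses at 24 h than at 4 h, as did FDXR (-0.72 ± 0.17, adjusted p = 0.0028). Higher responses at 24 h were found for ZMAT3 (1.43 ± 0.21, adjusted p = 2.1e-05), RRM2B (0.58 ± 0.20, adjusted p = 0.029) and SESN1 (0.35 ± 0.12, adjusted p = 0.025). The call of RRM2B was lost without replicate 2 or 3 of DMSO at 4 h, replicate 1 or 2 of tunicamycin at 4 h, or replicate 3 of either group at 24 h (adjusted p = 0.057 to 0.089). That of SESN1 was lost without replicate 2 of tunicamycin at 4 h (adjusted p = 0.07) or of DMSO at 24 h (0.051) and with the corrections for GC content (0.051) and length (0.14). MDM2 (0.18, 95% interval -0.12 to 0.48), TP53I3 (0.13, -0.31 to 0.57) and PHLDA3 (-0.03, -0.35 to 0.30) did not pass.

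Because each response is read against the DMSO of its own time, the DMSO groups were compared with each other. From 4 h to 24 h in DMSO, 4 of 9 members changed, beside 42.6% of all genes. CDKN1A rose 2.24-fold (log2 1.16 ± 0.10, adjusted p = 7.4e-09). MDM2 fell by 0.50 ± 0.10 on the log2 scale (adjusted p = 0.00046), and ZMAT3 (-0.46 ± 0.15, adjusted p = 0.016) and RRM2B (-0.47 ± 0.14, 0.012) fell as well. Without replicate 3 of DMSO at 4 h or replicate 3 at 24 h, ZMAT3 (adjusted p = 0.07 and 0.1) and RRM2B (0.077 and 0.062) were not called. Then 2 members were left called, beside 34.2% and 37.4% of all genes. ZMAT3 missed also without replicate 2 at 4 h (0.054) and with the GC correction (-0.23, 0.12). SESN1 was called with the GC correction (0.25, adjusted p = 0.013) and FDXR without replicate 1 of DMSO at 4 h (0.43, 0.0042). CDKN1A, which rose in the control, fell with tunicamycin at 24 h, and ZMAT3 and RRM2B, which fell in the control, rose with it. Both comparisons share the DMSO libraries at 24 h, and the part of the control in these responses was not tested. In tunicamycin at 24 h the levels of CDKN1A (105 CPM), ZMAT3 (19.1 CPM) and RRM2B (79.6 CPM) stood beside 84.1, 18.7 and 77.9 CPM in untreated cells, which overlapped for ZMAT3 and RRM2B but not for CDKN1A. Between untreated cells and DMSO at 4 h edgeR called none of the 9 members and 0% of all genes. Of the members 3 had an unadjusted p below 0.05, as had 1160 of the 14012 genes, and limma voom and DESeq2 called 0 members and 0 and 8 genes.

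The interaction of tunicamycin with cell line compared the responses of HEK293T and OCI-AML3 at 24 h. It passed for 6 of 9 members, beside 26.8% of all genes, and 1 member, GADD45A, also passed the fold threshold, beside 4.89%. The response was higher in HEK293T for GADD45A (1.36 ± 0.15, adjusted p = 8.2e-07), for CDKN1A (0.58 ± 0.15, adjusted p = 0.008) and for FDXR (0.53 ± 0.19, adjusted p = 0.041). It was lower in HEK293T for TP53I3 (-0.98 ± 0.24, adjusted p = 0.0045), RRM2B (-0.82 ± 0.20, adjusted p = 0.0046) and ZMAT3 (-0.68 ± 0.20, adjusted p = 0.016). The call of CDKN1A was lost without replicate 3 of DMSO in HEK293T (0.40, adjusted p = 0.061), and that of FDXR without any of 9 of the 12 libraries, among them replicate 3 of tunicamycin in OCI-AML3 (0.33, 0.18), as well as with the corrections for GC content (0.37, 0.078) and length (0.41, 0.057). It was also lost with DESeq2 size factors (adjusted p = 0.059), library sizes without TMM (0.069), 1 CPM in 3 libraries (0.069) and the groups alone (0.055). PHLDA3 had a difference of 0.00 with a 95% interval from -0.47 to 0.48, MDM2 one of -0.17 (-0.47 to 0.13) and SESN1 one of -0.14 (-0.39 to 0.11). These interactions rest on the OCI-AML3 libraries at 24 h that the comparison above also used.

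Without tunicamycin, after DMSO for 24 h, 5 members were lower in HEK293T than in OCI-AML3 past both thresholds, beside 24.9% of all genes. CDKN1A was 10.5-fold lower, at 15.3 ± 2.64 against 161 ± 3.52 CPM (SD, n = 3; log2 -3.40 ± 0.11, adjusted p = 4.1e-18). This OCI-AML3 group was the highest for CDKN1A, which stood at 72.1 CPM in DMSO at 4 h and 84.1 CPM in untreated cells. PHLDA3 was 5.37-fold lower (log2 -2.42 ± 0.12, adjusted p = 1.8e-14), FDXR 3.81-fold (-1.93 ± 0.13, 3e-12), TP53I3 2.56-fold (-1.35 ± 0.17, 9.3e-08) and SESN1 2.22-fold (-1.15 ± 0.09, 1.8e-11). The remaining members were at similar levels in both lines or higher in HEK293T. ZMAT3 was called higher (0.41 ± 0.15, adjusted p = 0.013), a call that the GC correction turned (-0.26, 0.038) and the length correction removed (0.03, 0.84). This call was also lost without replicate 3 of DMSO in OCI-AML3 (0.31, 0.066) or in HEK293T (0.35, 0.052), and without the filter (0.23, 0.13). GADD45A (0.12, 95% interval -0.11 to 0.35), MDM2 (0.17, -0.04 to 0.39) and RRM2B (0.02, -0.28 to 0.32) did not pass. MDM2 was called higher without replicate 1 of DMSO in OCI-AML3 (0.27, adjusted p = 0.036) and, at the threshold, in HEK293T (0.25, 0.05). With the GC correction MDM2 (-0.39, adjusted p = 2.1e-05) and RRM2B (-0.83, 2.2e-09) were called lower in HEK293T, as was MDM2 with the length correction (-0.17, 0.018). Library sizes without TMM instead called MDM2 (0.52, adjusted p = 0.00039), GADD45A (0.47, 0.00033) and RRM2B (0.36, 0.043) higher in HEK293T, and GADD45A was called higher with the corrections for GC content (0.25, 0.031) and length (0.37, 0.0015) too. In all, 6 of 9 members differed between the lines at an adjusted p of 0.05, beside 82.7% of all genes, and the median log2 fold change of the 9 was -1.15 beside -0.01 for all genes. Library sizes without TMM moved the latter median to 0.33 and left 4 of the 5 lower members past both thresholds, with SESN1 at -0.81, and the GC correction also left 4, with TP53I3 at -0.92.

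**Figure D3:**
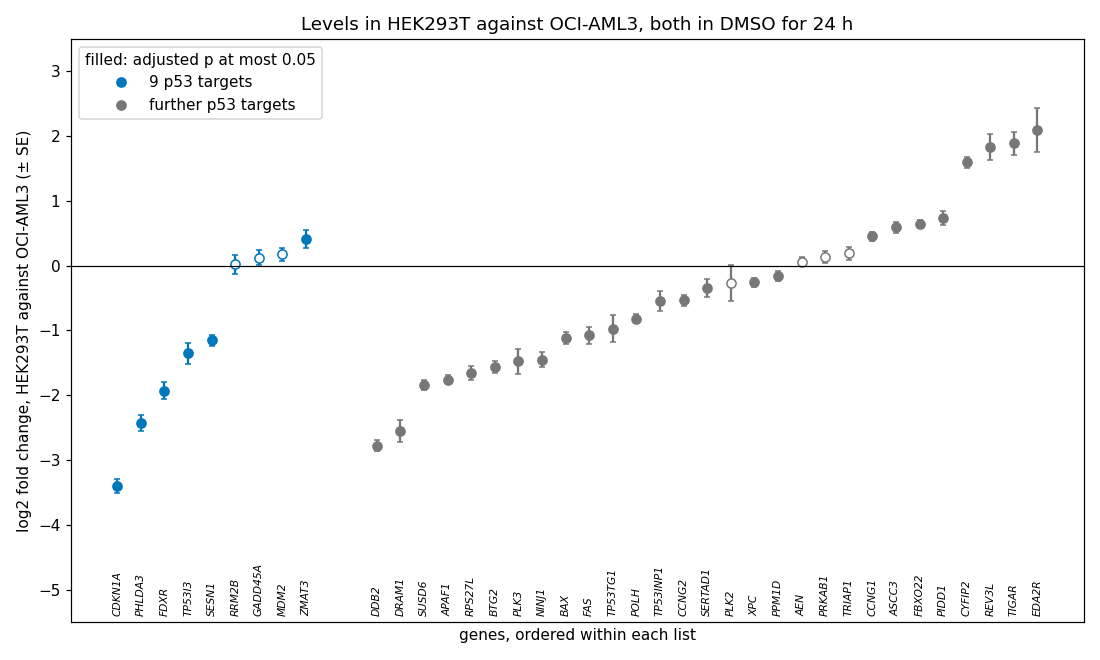
Log2 fold change of HEK293T against OCI-AML3, both in DMSO for 24 h (y axis), as edgeR estimates ± 1 standard error from 3 libraries a group, for the 9 p53 targets and for 29 further p53 targets (x axis, ordered by value), filled where the adjusted p was at most 0.05. CDKN1A lies lowest at -3.40 and ZMAT3 highest of the 9 at 0.41, and TNFRSF10A and TRIM22, near 0 counts in HEK293T, are not drawn.

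Per kilobase of canonical transcript, which allows levels to be compared between genes, CDKN1A (39.7 ± 1.34 CPM per kb, SD, n = 3) and FDXR (37.2 ± 1.39) led in untreated OCI-AML3 cells. PHLDA3 (22.7 ± 1.43) and MDM2 (20.5 ± 1.98) followed and did not differ beyond their spread. RRM2B (16.3 ± 2.86), SESN1 (11.1 ± 0.461), GADD45A (10.9 ± 1.57) and TP53I3 (9.63 ± 0.592) came next, and ZMAT3 was lowest at 2.10 ± 0.219. In HEK293T after DMSO the order was another. MDM2 led at 15 ± 0.983, then FDXR (10.6 ± 1.33), RRM2B (10.4 ± 0.395) and GADD45A (10.1 ± 0.691) lay within their spread of each other, CDKN1A came next at 7.23 ± 1.25 and ZMAT3 again last at 1.90 ± 0.234. After tunicamycin GADD45A was second in OCI-AML3 at 4 h (34.0 ± 2.76) and first in HEK293T (30.9 ± 1.03), but at rank 8 in OCI-AML3 at 24 h (11.1 ± 0.952).

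The order of the groups differed from gene to gene. CDKN1A was highest in DMSO at 24 h and did not overlap the next group, whereas SESN1, ZMAT3, TP53I3 and RRM2B had their highest mean in tunicamycin at 24 h and each overlapped the next group. MDM2 and PHLDA3 were highest in untreated cells, at 153 ± 14.8 and 62.4 ± 3.93 CPM (SD, n = 3), and overlapped DMSO at 4 h and DMSO at 24 h respectively. For CDKN1A, SESN1, TP53I3, FDXR and PHLDA3 the lowest OCI-AML3 group stayed above both HEK293T groups without overlap. The share of all genes that separate in this way was not counted. By another criterion, the test between the lines in DMSO at 24 h, 42.2% of all genes were called lower in HEK293T.

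Libraries of a group departed from each other with the base composition of the genes. Canonical transcripts of RRM2B, ZMAT3, MDM2 and SESN1 had a GC content of 35.1%, 38.2%, 39.5% and 40.6%, and those of GADD45A, CDKN1A, PHLDA3, TP53I3 and FDXR 50.7%, 57.3%, 59.0%, 59.4% and 63.5%. In replicate 3 of tunicamycin at 24 h in OCI-AML3 the former 4 genes were each the highest of their group and the latter 5 each the lowest. In replicate 1 of DMSO at 4 h RRM2B, ZMAT3 and MDM2 were the lowest of their group and the other 6 the highest. Across 13971 genes, which are not independent replicates, the deviation of a library from its group mean correlated with GC content at -0.42 (Pearson) in the former library and 0.19 in the latter, within a range from -0.42 to 0.37 over the 21 libraries. With log2 length it correlated at 0.30 and -0.34. Corrections for GC content and length were chosen after the data were seen, and their values stand beside the calls they changed.

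**Figure D4:**
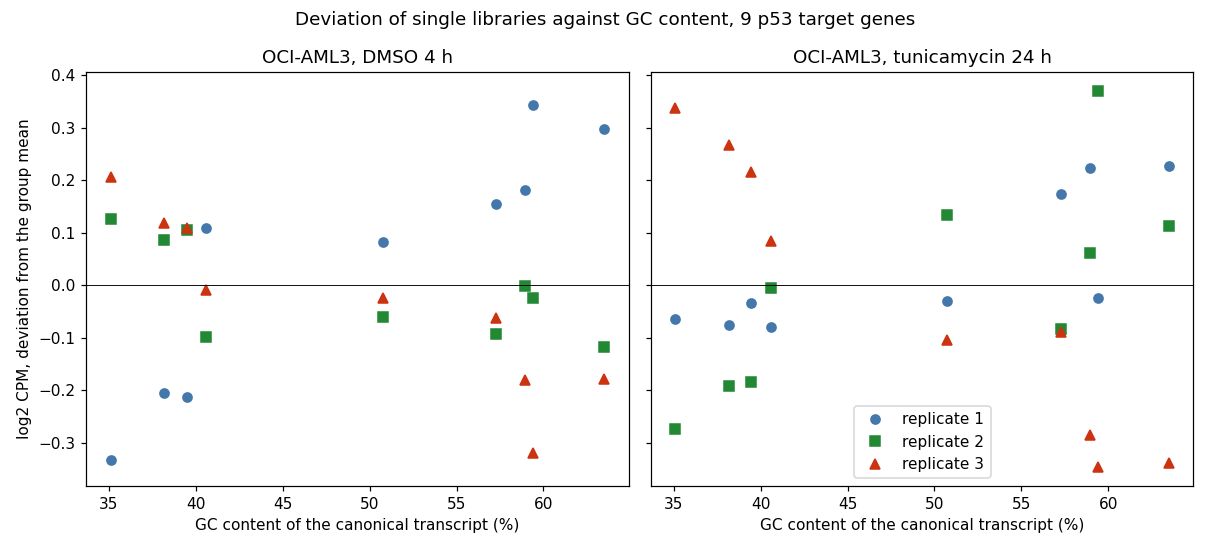
Deviation of log2 CPM from the group mean (y axis) against the GC content of the canonical transcript in percent (x axis) for the 9 p53 targets, with a symbol for each of the 3 replicates, in OCI-AML3 after DMSO for 4 h (left) and tunicamycin for 24 h (right). Replicate 1 of DMSO runs upward with GC content and replicate 3 of tunicamycin downward, between RRM2B at 35.1% and FDXR at 63.5%.

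Further p53 targets, a list of 34 genes of which 31 were tested, moved in both directions, with more falls than rises at 4 h. At 4 h 3 rose and 12 fell, beside 18.5% and 18.9% of all genes, at 24 h 7 rose and 8 fell, beside 23.5% and 27.7%, and in HEK293T 1 rose and 5 fell, beside 12.6% and 13.1%. The medians were -0.18, -0.02 and -0.09. CCNG2, an atypical cyclin, rose by 1.73 ± 0.09 at 4 h (adjusted p = 1.3e-12) and SUSD6 by 0.75 ± 0.07 (2.3e-08). PLK3, a stress kinase, had -1.08 ± 0.17 (3.1e-05) and TP53INP1, an autophagy regulator, -0.96 ± 0.16 (4.7e-05). At 24 h DRAM1, a lysosomal protein of autophagy, rose by 0.85 ± 0.13 (1.4e-05), and TP53INP1 by 0.59 ± 0.14 (0.0018), whereas CYFIP2 (-0.68 ± 0.09, 3.4e-06), RPS27L (-0.57 ± 0.11, 0.00015) and BAX, an effector of mitochondrial apoptosis (-0.51 ± 0.09, 7.5e-05), fell. In HEK293T DRAM1 rose (0.63 ± 0.19, 0.018) and BTG2, an antiproliferative gene, fell (-0.39 ± 0.09, 0.0037). The 6 calls in HEK293T became 2 without replicate 3 of DMSO or of tunicamycin, 3 without replicate 1 of tunicamycin, and 10 with the GC correction. Of all genes 20.6%, 18.9%, 19.8% and 31.1% were called in these settings, in that order. Between the lines in DMSO 19 of the 31 were lower in HEK293T and 8 higher, beside 42.2% and 40.5% of all genes. The median was -0.54, beside -0.01 for all genes, and was the same with the 2 genes near 0 counts set at the bound of 3 counts. TNFRSF10A was at 0 in all HEK293T libraries and at 9.33 to 22.9 CPM in OCI-AML3.

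Genes that both p53 and the ER stress factors ATF4 or CHOP are known to induce behaved otherwise. All 7 rose at 4 h and in HEK293T, beside 18.5% and 12.6% of all genes, and 6 of 7 at 24 h, beside 23.5%, where BBC3 had -0.05 (adjusted p = 0.74). DDIT4, an inhibitor of mTORC1, rose by 5.44 ± 0.14 at 4 h (adjusted p = 9.3e-19), GDF15, a secreted stress cytokine, by 3.70 ± 0.23 (1.3e-11), and ATF3, a stress transcription factor, by 3.66 ± 0.17 (6.7e-14). At 24 h GDF15 rose by 3.25 ± 0.26 (9.4e-10) and PMAIP1, which encodes the BH3-only protein NOXA, by 1.62 ± 0.09 (2.8e-12). In HEK293T ATF3 rose by 2.24 ± 0.11 (3.3e-13) and SESN2 by 2.17 ± 0.08 (1.6e-15). The medians of the list were 3.16, 0.67 and 1.39. The list was written with earlier results of these libraries known and is no independent evidence of a direction.

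Genes that p21 lowers through the DREAM repressor complex, which silences cell cycle genes, were counted beside CDKN1A. Of 15, all fell at 24 h in OCI-AML3, where CDKN1A fell as well, beside 27.7% of all genes. At 4 h, where CDKN1A rose, 7 fell and 1 rose, and in HEK293T 9 fell, beside 18.9% and 13.1% of all genes called lower. The medians were -0.78 at 24 h, -0.29 at 4 h and -0.28 in HEK293T. At 24 h the mitotic kinase PLK1 had -1.30 ± 0.07 (adjusted p = 5.6e-13), CDC20, an activator of the anaphase-promoting complex, -1.29 ± 0.07 (3e-12) and cyclin B1 (CCNB1) -1.09 ± 0.06 (1.6e-12). In HEK293T the largest fall was that of the checkpoint kinase BUB1 (-0.53 ± 0.06, 2.4e-07). At 4 h CDC25C rose (0.44 ± 0.11, 0.0029) and BUB1B fell (-0.71 ± 0.06, 3.5e-09).

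**Figure D5:**
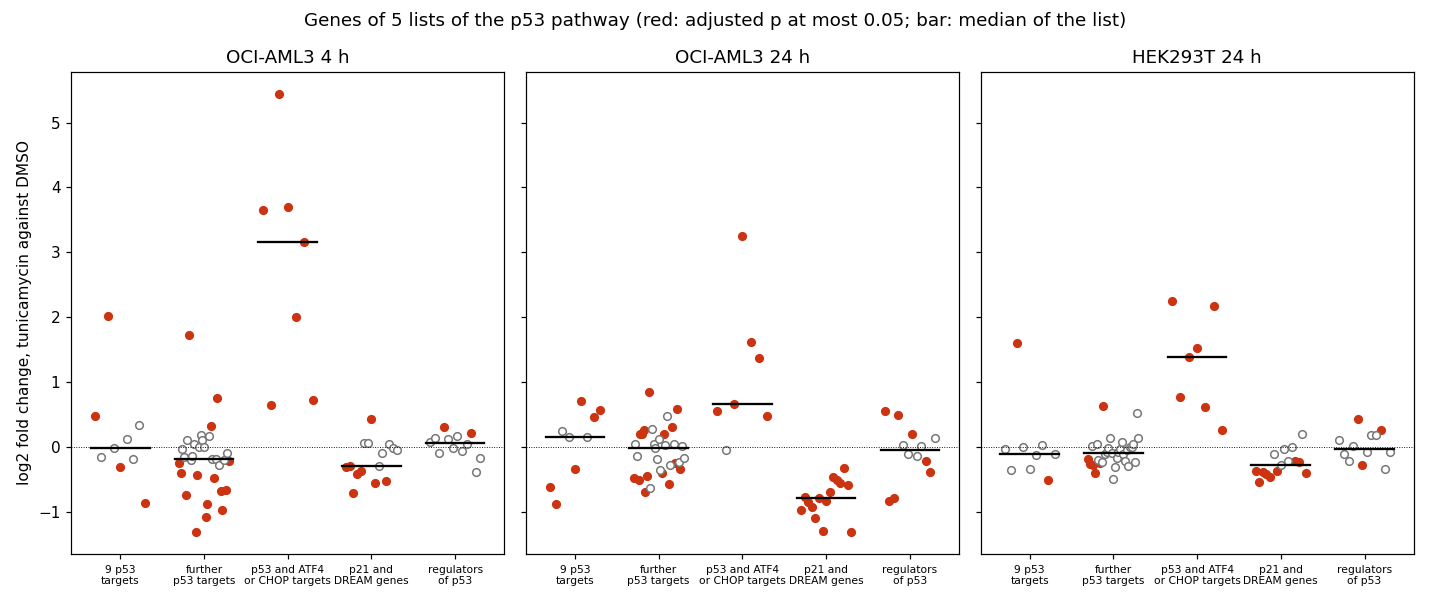
Log2 fold change of tunicamycin against DMSO (y axis) for the tested genes of 5 lists (x axis) in OCI-AML3 at 4 h, OCI-AML3 at 24 h and HEK293T at 24 h, a point for each gene, red where the adjusted p was at most 0.05, with a bar at the median of the list. The 7 genes shared with ATF4 or CHOP lie highest (medians 3.16, 0.67 and 1.39) while the medians of the 9 p53 targets lie near 0 (-0.02, 0.16 and -0.10).

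Among the 12 genes of p53 and its regulators, 2 were called at 4 h, 7 at 24 h and 3 in HEK293T, which is 16.7%, 58.3% and 25% beside 37.5%, 51.1% and 25.7% of all genes. HIPK2, a kinase that phosphorylates p53, rose at 4 h (0.31 ± 0.11, adjusted p = 0.026) and at 24 h (0.50 ± 0.11, 0.00049). The checkpoint kinase CHEK2 (-0.79 ± 0.09, 1.2e-07) and the CDKN2A locus, whose ARF product holds MDM2 (-0.84 ± 0.18, 0.00056), fell at 24 h. MDM4, the partner of MDM2, rose in HEK293T (0.43 ± 0.11, 0.0057). It had 0.13 (adjusted p = 0.37) at 4 h and 0.03 (0.85) at 24 h in OCI-AML3. CDKN2A was higher in HEK293T than in OCI-AML3 in DMSO (4.66 ± 0.15, 1.5e-18). When DMSO replicate 3 or tunicamycin replicate 1 was left out, the 2 calls at 4 h became 0, beside 33.7% and 32% of all genes. They became 1 when DMSO replicate 1 or tunicamycin replicate 2 was left out, beside 36.4% and 31.7%. The 7 calls at 24 h became 4 when DMSO replicate 2 or tunicamycin replicate 3 was left out, beside 45.6% and 41.7%.

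Of the relatives of the members, 11 of 12 tested, 7 were called at 4 h, 6 at 24 h and 5 in HEK293T, which is 63.6%, 54.5% and 45.5%, beside 37.5%, 51.1% and 25.7% of all genes. Of the sestrins, SESN2 rose by 3.16 ± 0.08 at 4 h, 1.38 ± 0.08 at 24 h and 2.17 ± 0.08 in HEK293T, while SESN3 fell at 4 h (-0.63 ± 0.12, adjusted p = 0.00031) and in HEK293T (-0.45 ± 0.13, 0.012) and SESN1 was not called. Of the GADD45 genes, GADD45B rose by 0.29 ± 0.10 at 4 h (adjusted p = 0.024), beside 2.02 for GADD45A. CDKN1B (p27) rose at 24 h in OCI-AML3 (0.41 ± 0.06, 1.7e-05) and in HEK293T (0.24 ± 0.07, 0.012), where CDKN1A fell and was not called respectively. RRM1 and RRM2, the subunits of ribonucleotide reductase in S phase, fell at 24 h in OCI-AML3 (-0.43 ± 0.06, 8.1e-06, and -0.14 ± 0.05, 0.041) where RRM2B rose. PHLDA1 rose at 4 h (1.01 ± 0.11, 1.6e-07) and PHLDA2 fell at 24 h (-1.33 ± 0.22, 2.6e-05). CRYZ, a quinone reductase related to TP53I3, fell in all 3 comparisons (-0.50, -0.39 and -0.42).

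Over the 15 OCI-AML3 libraries, which share controls and treatments, the gene whose log2 CPM was most like that of CDKN1A was CD74 (Pearson r = 0.95). It was SMARCA5 for MDM2 (r = 0.98), ZNF410 for GADD45A (r = 0.97), GTF2IP1 for SESN1 (r = 0.93) and SLC35F5 for ZMAT3 (r = 0.98). For TP53I3 it was GALM (r = 0.88), for FDXR GAMT (r = 0.99), for RRM2B TRPM7 (r = 0.97) and for PHLDA3 HMOX2 (r = 0.96). No member was the nearest gene of another member, nor among its nearest 3.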

How the data were processed

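Polyadenylated RNA of 21 libraries was measured, 3 replicates in each of 7 groups taken from the sample labels. After quality trimming with seqtk, the authors used STAR for alignment (GRCh38) and RSEM with Ensembl gene models for counting. They deposited RSEM expected counts (estimated counts, not normalized) for 60671 genes, which were rounded to whole numbers here. The 14012 genes that reached 1 CPM in 8 or more libraries entered edgeR 4.0.16 (R 4.3.3) with TMM scaling and a quasi-likelihood model with a mean per group and no replicate block. A call is an adjusted p (Benjamini-Hochberg, over all genes tested) of 0.05 or less, and "past both thresholds" adds a log2 fold change beyond 1. Standard errors were derived from each estimate and its F statistic, and intervals are at 95%. The filter and both thresholds follow the study's methods, which used limma voom, and the model was chosen here.

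The members and gene lists were chosen with earlier results of these data known. All 9 members were named in every comparison. Of other lists at most the 3 called genes farthest from 0 in each direction were named, and of the regulators and relatives any measured gene. Likeness is the Pearson correlation of log2 CPM (prior count 2). Alternatives were limma voom 3.58.1, the DESeq2 1.42.0 Wald test, DESeq2 size factors, unscaled library sizes, a filter of 1 count only or of 1 CPM in 3 libraries, the compared groups alone, a replicate block and each library left out. Corrections for GC content and transcript length were added after the data were seen. Positions and lengths are from GENCODE on GRCh38. Promoters are from RefSeq (GRCh38). The fits were tested on simulated data. Libraries held 13838466 to 19961798 counts, and 3 counts, the limit a count of 0 allows, are 0.132 to 0.231 CPM. Intervals and limits cover counting error and the spread between these libraries only.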

Additional observations from a re-analysis of the deposited data

Results flagged for a closer look

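The response of OCI-AML3 to tunicamycin differed between 4 h and 24 h, by the interaction term of edgeR, for CDKN1A (-1.09, adjusted p = 4.4e-06), GADD45A (-1.77, 2e-08) and FDXR (-0.72, 0.0028), lower at 24 h, and for ZMAT3 (1.43, 2.1e-05), RRM2B (0.58, 0.029) and SESN1 (0.35, 0.025), higher at 24 h. At 24 h it differed between HEK293T and OCI-AML3 for GADD45A (1.36, 8.2e-07), CDKN1A (0.58, 0.008) and FDXR (0.53, 0.041), higher in HEK293T, and for TP53I3 (-0.98, 0.0045), RRM2B (-0.82, 0.0046) and ZMAT3 (-0.68, 0.016), lower in HEK293T. Each was picked out by the test of the difference itself. With time, the call of RRM2B was lost when any of 6 libraries was left out (adjusted p = 0.057 to 0.089) and that of SESN1 in 4 alternatives (0.051 to 0.14). With cell line, that of FDXR was lost in 15 alternatives (0.052 to 0.18) and that of CDKN1A without replicate 3 of DMSO in HEK293T (0.061). From 4 h to 24 h the DMSO control changed as well for CDKN1A, ZMAT3 and RRM2B, and its part in the interaction with time was not tested. The interaction is the change from 4 h to 24 h in tunicamycin less that in DMSO. Mean levels of CDKN1A at these times were 100 and 105 CPM in tunicamycin and 72.1 and 161 CPM in DMSO. Those of ZMAT3 were 9.76 and 19.1 against 17.6 and 12.8 CPM, and those of RRM2B 74.0 and 79.6 against 67.5 and 48.7 CPM.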

How the results depend on the processing

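Of the 72 values of members in 8 comparisons 34 were called, 23 of these calls held under every alternative run, and 1 called value changed sign. Groups held 3 replicates, libraries departed with GC content, and the lines differ in more than p53. Whether the spread between libraries or depth limits small differences more was not tested. The cause of the changes below was not tested.

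Members called in HEK293T numbered 2, and 1 with limma voom or 1 CPM in 3 libraries, 4 without TMM, without the filter, with the groups alone or with the GC or length correction, and 1 to 4 with a library left out. Of all genes 25.7% were called there, 27.5% with limma voom, 23.3% with 1 CPM in 3 libraries, 27.1% without TMM, 11.7% without the filter, 41.3% with the groups alone, 31.1% and 30.6% with the GC and length corrections, and 18.9% to 20.6% with a library left out. Those past both thresholds in the interaction with cell line numbered 1, and 2 with the DESeq2 Wald test, DESeq2 size factors, without TMM, with 1 CPM in 3 libraries, the groups alone or either correction, and 1 to 2 with a library left out. Of 14012 genes 284 higher and 401 lower passed both. These were 237 and 443 with the Wald test, 247 and 439 with size factors and 197 and 533 without TMM. The groups alone gave 243 and 444, the GC correction 227 and 465, and the length correction 221 and 445. With 1 CPM in 3 libraries they were 276 and 514 of 16556. Leaving a library out gave 198 to 285 higher and 373 to 514 lower. From 4 h to 24 h in DMSO 2 to 5 were called with a library left out, beside 34.2% to 45.4% of all genes. For the regulators the 2 calls at 4 h became 4 with the length correction and 0 to 2 with a library left out. Of all genes 40.6% and 31.7% to 36.4% were called there. The 7 calls of regulators at 24 h became 4 with the groups alone and 4 to 8 with a library left out, beside 41.9% and 41.7% to 50.3%. The 3 in HEK293T became 7 with the groups alone and 5 with the length correction, beside the shares given above. The 6 further targets in HEK293T became 10 with the groups alone or the GC correction and 2 to 4 with a library left out, and the 5 relatives 3 to 5.

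Signs turned for values that were not called, and for ZMAT3 between the lines, called higher at 0.41 and lower with the GC correction. Without TMM they were -0.0031 for SESN1 in HEK293T, -0.060, -0.083 and -0.010 for SESN1, TP53I3 and PHLDA3 from 4 h to 24 h in DMSO, and 0.066 and -0.11 for PHLDA3 in the interactions with time and line. In the latter 2 PHLDA3 had 0.015 and -0.039 with the DESeq2 Wald test, 0.013 and -0.037 with DESeq2 size factors, 0.0088 and -0.040 with 1 CPM in 3 libraries, and 0.016 and -0.036 with the groups alone, which gave 0.011 for MDM2 in HEK293T. Between the lines RRM2B had -0.024 with DESeq2 and with its size factors, -0.16 without the filter, -0.038 with 1 CPM in 3 libraries and -0.0028 with the groups alone, and without the filter MDM2 had -0.0058 and GADD45A -0.055. The GC correction gave -0.024 for MDM2 at 24 h, -0.048 for SESN1 in HEK293T, -0.11 and -0.030 for TP53I3 and PHLDA3 from 4 h to 24 h in DMSO, 0.078 and -0.13 for PHLDA3 in the interactions, and -0.39, -0.26 and -0.83 for MDM2, ZMAT3 and RRM2B between the lines. The length correction gave -0.00023 for SESN1, -0.020 for TP53I3, 0.028 and -0.057 for PHLDA3, and -0.17 and -0.20 for MDM2 and RRM2B in the same comparisons.

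With a library left out, values crossed 0 for CDKN1A in HEK293T (-0.16 to 0.097), FDXR at 4 h (-0.24 to 0.025), MDM2 at 4 h (-0.10 to 0.034) and in HEK293T (-0.042 to 0.052), RRM2B at 4 h (-0.0018 to 0.23) and between the lines (-0.037 to 0.13), SESN1 in HEK293T (-0.036 to 0.078), PHLDA3 in the interactions with time (-0.11 to 0.14) and line (-0.18 to 0.070) and TP53I3 with time (-0.036 to 0.32). From 4 h to 24 h in DMSO this held for SESN1 (-0.030 to 0.13) and TP53I3 (-0.12 to 0.22), and from untreated cells to DMSO at 4 h for SESN1 (-0.027 to 0.063), TP53I3 (-0.30 to 0.024) and ZMAT3 (-0.15 to 0.017).

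Replicate numbers were not taken as pairs, since no label ties them and same-numbered libraries correlated at 0.014 to 0.13 at 4 h, -0.14 to 0.015 at 24 h and 0.044 to 0.12 in HEK293T, not all above the 0.1 required. Other-numbered ones correlated at -0.17 to 0.085, -0.12 to 0.18 and -0.077 to 0.026, so that in HEK293T every library correlated best with its own number, a hint from the data and not from the design. A replicate block left 4, 6 and 3 members called in the 3 comparisons, beside 38.6%, 51.7% and 27% of all genes. The added member was PHLDA3 in HEK293T (-0.34, edgeR adjusted p = 0.046), and the block changed no other call of a member. Without TMM the genes called higher and lower became 7303 and 4646 (from 5676 and 5914) between the lines, 2131 and 4611 (from 2944 and 3026) from 4 h to 24 h in DMSO, where the median of all genes moved to -0.14, 4005 and 3196 (from 3286 and 3877) at 24 h and 1533 and 2264 (from 1771 and 1835) in HEK293T, and in the interactions 2776 and 2164 (from 2111 and 2842) with time and 1516 and 2178 (from 2232 and 1529) with line. With 1 CPM in 3 libraries the median between the lines was 0.11.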
